A study of Mus musculus with 3 samples.

Results

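The genes described here were 7 members of the inflammasome pathway, taken by name from the gene list of the deposited count matrices: the sensors Nlrp3 and Aim2, the adaptor Pycard, the caspases Casp1 and Casp4, the pore-forming protein Gsdmd and the cytokine Il18. They were 7 of 32285 genes measured. Single-cell RNA-Seq was performed on mouse left lungs in 3 libraries, 1 per condition, and each library pooled the cells of 2 mice, labelled C57BL/6J. The naive library came from lungs without surgery. The 2 h and 3 d libraries came from left lungs of CD45.2 donors placed in congenic CD45.1 recipients, where the grafts were kept for 60 minutes at 4 °C and 45 minutes at 28 °C and were then reperfused for 2 hours or 3 days. The study sorted recipient cells by CD45.1, so that leukocytes of the donor lung were largely left out of the transplant libraries, whereas naive mice hold no recipient cells and no source used here gives their gate. The comparisons ask how the pathway's transcripts differ among lung leukocytes early and late after ischemia and reperfusion.

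Inflammasomes are protein complexes that assemble in the cytosol when a sensor detects damage or infection. NLRP3 responds to many kinds of cell stress and AIM2 to cytosolic DNA. Both recruit the adaptor ASC, encoded by Pycard, which in turn recruits caspase-1. Caspase-1 cleaves the precursors of IL-1β and IL-18 and also gasdermin D, whose fragment forms pores in the plasma membrane. Mouse Casp4 encodes the protein known as caspase-11, which binds intracellular lipopolysaccharide and cleaves gasdermin D. Il18 mRNA is made in many cell types without stimulation, and the protein acts on lymphocytes that carry the IL-18 receptor.

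In GRCm38 with the GENCODE vM21 annotation, Nlrp3 (ENSMUSG00000032691) lies on the plus strand of chromosome 11, from 59541568 to 59566956, and Aim2 (ENSMUSG00000037860) on the plus strand of chromosome 1, from 173350879 to 173466040. Pycard (ENSMUSG00000030793) lies on the minus strand of chromosome 7, from 127989708 to 127993867, and Gsdmd (ENSMUSG00000022575) on the plus strand of chromosome 15, from 75862327 to 75867408. Chromosome 9 holds the other members, all on the plus strand. Casp1 (ENSMUSG00000025888) spans 5298517 to 5307265, Casp4 (ENSMUSG00000033538) spans 5308828 to 5336783 and Il18 (ENSMUSG00000039217) spans 50554827 to 50581840, so that Casp1 and Casp4 are neighbors. Aim2 overlaps Cadm3, Pycard overlaps Gm45205 and Il18 overlaps Bco2 and Tex12, each on the opposite strand.

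Promoter windows of 250 bases before and 50 bases after a transcript start, from RefSeq on GRCm38.p6, were found for 6 of the 7 members. Those of Nlrp3, Casp4 and Pycard are printed because their lineage patterns contrasted most in these data: of the 6 lineages, neutrophils held the highest level of Nlrp3 and Casp4 and the lowest of Pycard. Capitals mark matches to 4 motifs searched on both strands: the NF-κB motif, the interferon-response element, a PU.1 motif (GAGGAAGT) and an AP-1 motif (TGANTCA).
Casp4, chr9:5308599-5308898, plus strand: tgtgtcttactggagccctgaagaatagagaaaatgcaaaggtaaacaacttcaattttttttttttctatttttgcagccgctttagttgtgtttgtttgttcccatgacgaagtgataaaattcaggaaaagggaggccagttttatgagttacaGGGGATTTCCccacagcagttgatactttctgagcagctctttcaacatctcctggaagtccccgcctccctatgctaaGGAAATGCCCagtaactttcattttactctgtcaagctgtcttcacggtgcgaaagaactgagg
Pycard, chr7:127993818-127994117, minus strand: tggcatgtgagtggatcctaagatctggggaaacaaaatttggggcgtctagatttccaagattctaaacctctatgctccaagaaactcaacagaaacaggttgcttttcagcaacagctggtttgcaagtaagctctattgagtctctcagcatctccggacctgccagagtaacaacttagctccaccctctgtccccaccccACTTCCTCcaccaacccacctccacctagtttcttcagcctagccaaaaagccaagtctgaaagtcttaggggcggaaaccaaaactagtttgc
Nlrp3, chr11:59541319-59541618, plus strand: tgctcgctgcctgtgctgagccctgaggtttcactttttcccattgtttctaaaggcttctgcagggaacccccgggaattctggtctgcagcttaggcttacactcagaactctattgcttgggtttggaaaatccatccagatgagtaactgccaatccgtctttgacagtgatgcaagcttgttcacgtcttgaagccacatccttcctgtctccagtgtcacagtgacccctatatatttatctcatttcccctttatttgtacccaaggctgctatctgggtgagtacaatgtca

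The Casp4 window held NF-κB matches at -93 and -14 from the start, and 1.63% of 32851 promoter windows held at least 1 match of that kind. Matches to the PU.1 motif lay at -44 in Pycard and at -113 in Aim2, against 3.2% of windows. Neither Nlrp3 window nor those of Casp1 and Il18 held any of the 4 motifs, of which the AP-1 motif occurs in 7.81% and the interferon-response element in 3.44% of windows. No match overlapped another. A match is a run of letters in the window and not a measured binding site.

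The libraries held 2921, 10328 and 9016 cells and 28538529, 10749100 and 70750470 unique molecular identifiers (UMIs) in the order naive, 2 h and 3 d. After the study's cell filters, 2422, 10283 and 8324 cells with a median of 7298.5, 878 and 5716.5 UMIs were left, so the 2 h cells were the shallowest. Between 1 and 23 barcodes were shared by each pair of libraries. Clusters were named from marker genes, and the summed lineages held 388, 4391 and 2261 neutrophils, 141, 452 and 1222 monocytes, 516, 1051 and 326 NK cells, 577, 2475 and 1055 T cells and 555, 1418 and 1904 B cells. Macrophages were 107 in the naive and 166 in the 3 d library, and no cluster of the 2 h library took that name. The clusters behind a lineage differed between libraries. Naive macrophages were almost all alveolar, led by Kcnip4, Lpl and Plet1, whereas those at 3 d were led by C1qb and C1qa. Monocytes were closest to classical ones in the naive library, to nonclassical ones at 2 h and to both at 3 d. The subset names were not clear-cut. Among the 10 leading genes, the naive cluster also had the nonclassical marker Adgre4, and the 2 h cluster the classical marker Vcan. Levels are UMIs of a gene among all UMIs of a lineage in a library, in CPM (counts scaled to a total of 1000000), with exact Poisson 95% intervals, and are compared within a gene only. Since each condition has a single library, no test across mice was possible, and all intervals cover counting error only. A difference between libraries cannot be told apart from one between mice or cell preparations or, against the naive library, from a difference in counting software (Cell Ranger 7.1.0 for naive, 6.0.0 for both transplants).

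**Figure D1:**
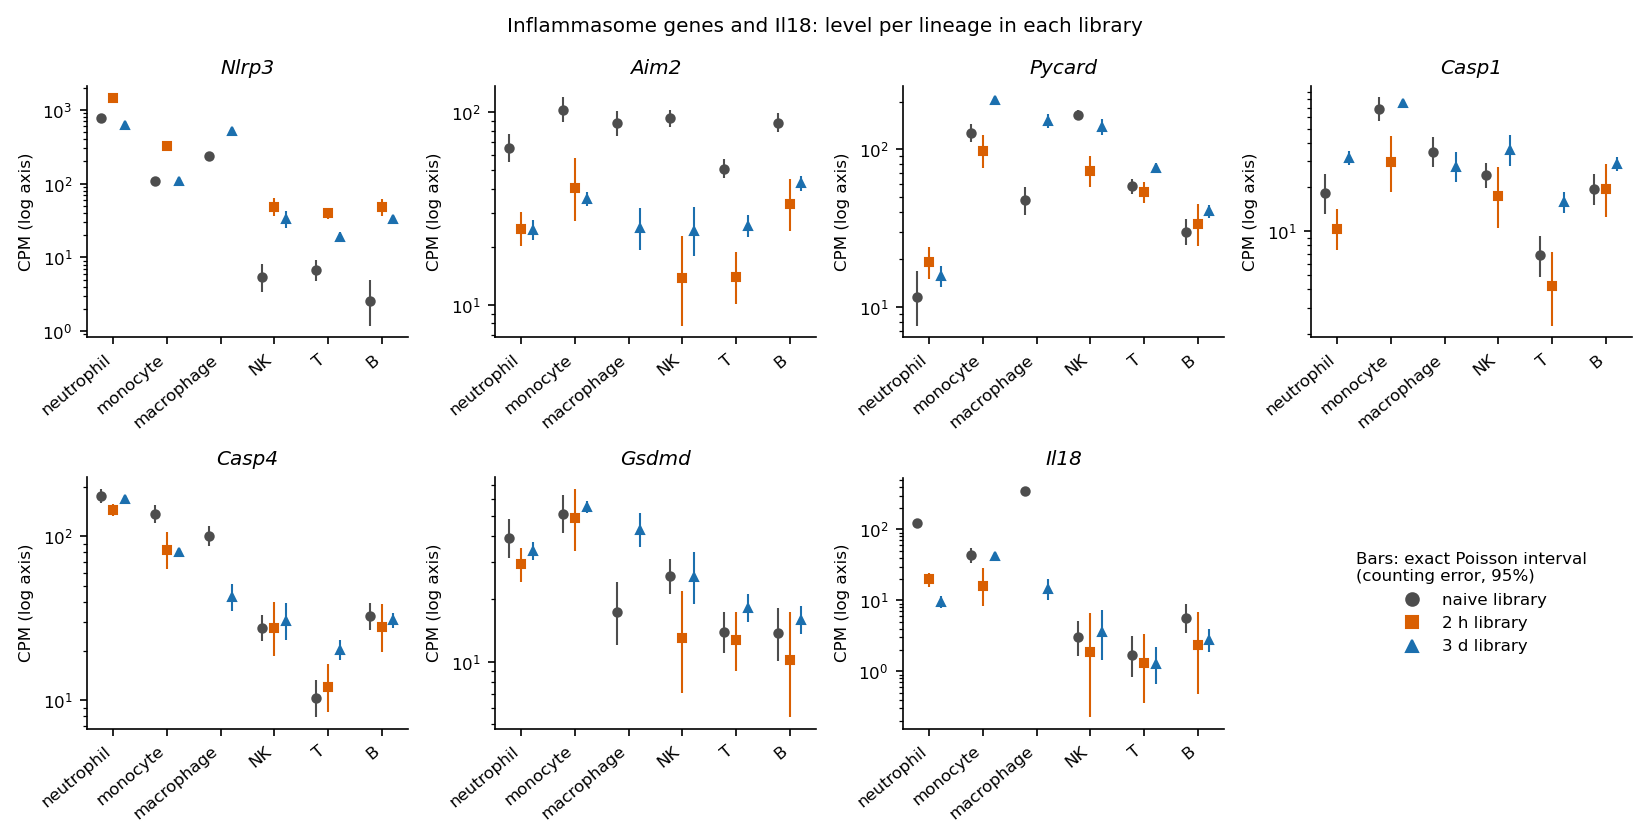
Level of each gene in CPM (log axis) by lineage, with circles for the naive, squares for the 2 h and triangles for the 3 d library; bars are exact Poisson 95% intervals of 1 library each. Among the lineages drawn, Nlrp3 stood highest in neutrophils in every library (770.4, 1438 and 628 CPM) and Pycard stood lowest in them. Il18 was highest in naive macrophages (346 CPM).

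Between 2 h and 3 d, Nlrp3 was lower at 3 d in neutrophils and monocytes, and Casp1 was higher at 3 d in neutrophils, monocytes, NK cells and T cells. Pycard and Il18 were higher at 3 d in monocytes, and Il18 was lower in neutrophils. Casp4, Gsdmd and Aim2 differed by less than 2-fold in all 5 lineages compared. Of the 35 pairs of a member and a lineage, 33 held at least 30 UMIs in both libraries together. At least 2-fold higher at 3 d were 6 of these, against 16.2% of 47589 pairs over all genes, and at least 2-fold lower were 4, against 7.21% of all pairs. The median log2 ratio over the 33 pairs was 0.27, and over all genes it was 0.26, so as a list the 7 genes stood where other genes stood and the differences lay in single members. Within the lineages, the median of all genes was between 0.22 and 0.30. After that shift was subtracted, 4 member pairs were higher and 4 lower, against 10.1% and 11.2% of all pairs, and the calls lost were those of Pycard in monocytes and Casp1 in NK cells.

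**Figure D2:**
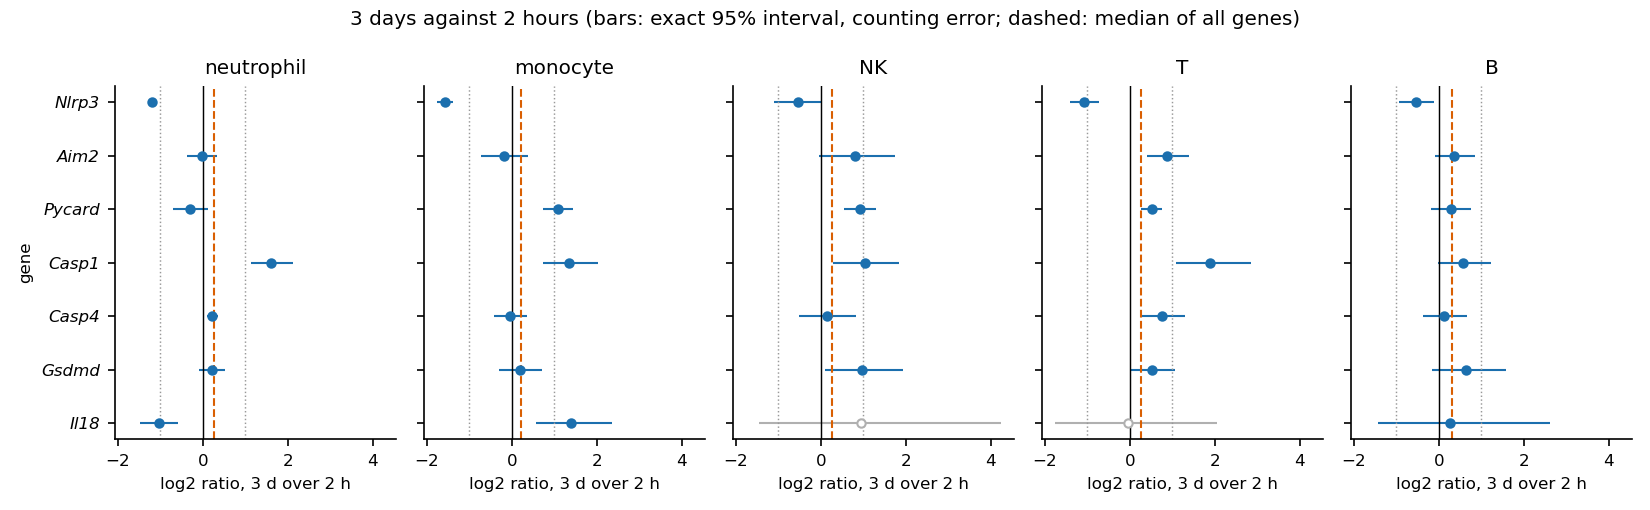
Log2 ratio of CPM, 3 d over 2 h, for each gene (rows) and lineage (panels), with exact 95% intervals for counting error; open grey points had fewer than 30 UMIs, dotted lines mark 2-fold and the dashed line is the median of all genes. Nlrp3 lay left of the median line in all 5 lineages, and Casp1 lay right of it in all 5, from 0.57 in B cells to 1.90 in T cells.

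Among the summed lineages, Nlrp3, which encodes the sensor of cell stress, stood highest in neutrophils. Its neutrophil level was 770.4 CPM in the naive library (95% interval 734.5 to 807.6), 1438 CPM at 2 h (1401 to 1477) and 628 CPM at 3 d (613.0 to 643). The 3 intervals did not overlap, and the 2 h library stood highest. The 3 d level was 2.29-fold lower than at 2 h (2.21 to 2.37), a log2 ratio of -1.20, and the 2 h level was 0.90 higher than naive on the log2 scale, short of 2-fold. Of the Nlrp3 UMIs in cells left after the filters, neutrophils held 64.8% in the naive, 89.0% in the 2 h and 40.4% in the 3 d library. Unnamed clusters held another 30.2% at 3 d. The filters removed many macrophages from the naive library. Without them, naive macrophages were 323 cells with 8058996 UMIs in place of 107 with 2029968, and the shares were not computed for that setting.

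The neutrophils of 2 h were not uniform. In all, 3 clusters made up nearly all of them, and Nlrp3 stood at 1607 CPM in the cluster led by Cxcl3 and Clec4n (2925 cells), at 846 CPM in the cluster led by the granule genes Ngp and Camp (1097 cells) and at 1911 CPM in the cluster led by Ccl4 and Ccl3 (367 cells). Nlrp3 is among the 10 leading genes of the first of these, so its level there helped to define it and is given as a description. The Ccl4 and Ccl3 cluster only just took the neutrophil name, with a median marker log2 ratio of 1.02 where more than 1 was needed. At 3 d, the single large neutrophil cluster stood at 627 CPM. An unnamed cluster of that library, led by Tnf, Ccl3 and Il23a and present as 149 cells, stood at 1863 CPM, with an interval that overlapped that of the Ccl4 and Ccl3 cluster of 2 h. Counting that cluster among the neutrophils and leaving out the Ccl4 and Ccl3 cluster gave a log2 ratio of -0.99 between 3 d and 2 h.

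Monocytes held 107 CPM of Nlrp3 in the naive library, 326 CPM at 2 h and 109 CPM at 3 d. The naive and 3 d intervals overlapped, and the 2 h library stood 3.04-fold over naive (2.51 to 3.70) and 2.98-fold over 3 d (2.60 to 3.41). Naive and 2 h monocytes lay mainly in clusters named as different subsets. Over the alternative settings the log2 ratio of 2 h to naive ranged from 0.07 to 1.96, and 11 of 14 kept the call. Among nonclassical monocytes alone the log2 ratio of 3 d to 2 h was -1.31. It was -0.59 without cells that held other lineages' markers, which left 59 of the 1222 monocytes at 3 d, and 0.84 when each cell was called on its own markers, so the monocyte difference depended on which cells were counted as monocytes. Macrophages held 235 CPM in the naive and 525 CPM at 3 d, a 2.23-fold difference (2.01 to 2.48) between an alveolar cluster and a C1q cluster. The unnamed Saa3 and Arg1 cluster of 3 d, of 633 cells and closest to the macrophage markers, stood at 558 CPM. Outside these lineages, the cluster with basophil and mast cell markers held 1279 CPM at 2 h (1055 to 1537, 68 cells). At 3 d it held 1163 CPM (1084 to 1246, 112 cells). The 2 h interval overlapped that of neutrophils, and the 3 d level was above the 628 CPM of neutrophils. In the naive library, 20 cells of that cluster held 193 Nlrp3 UMIs among 158506 UMIs, also a higher level than in neutrophils. Aim2, Pycard, Casp1, Gsdmd and Il18 had no UMI in that cluster at 2 h, where the Poisson interval reaches 41.4 CPM for each.

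**Figure D3:**
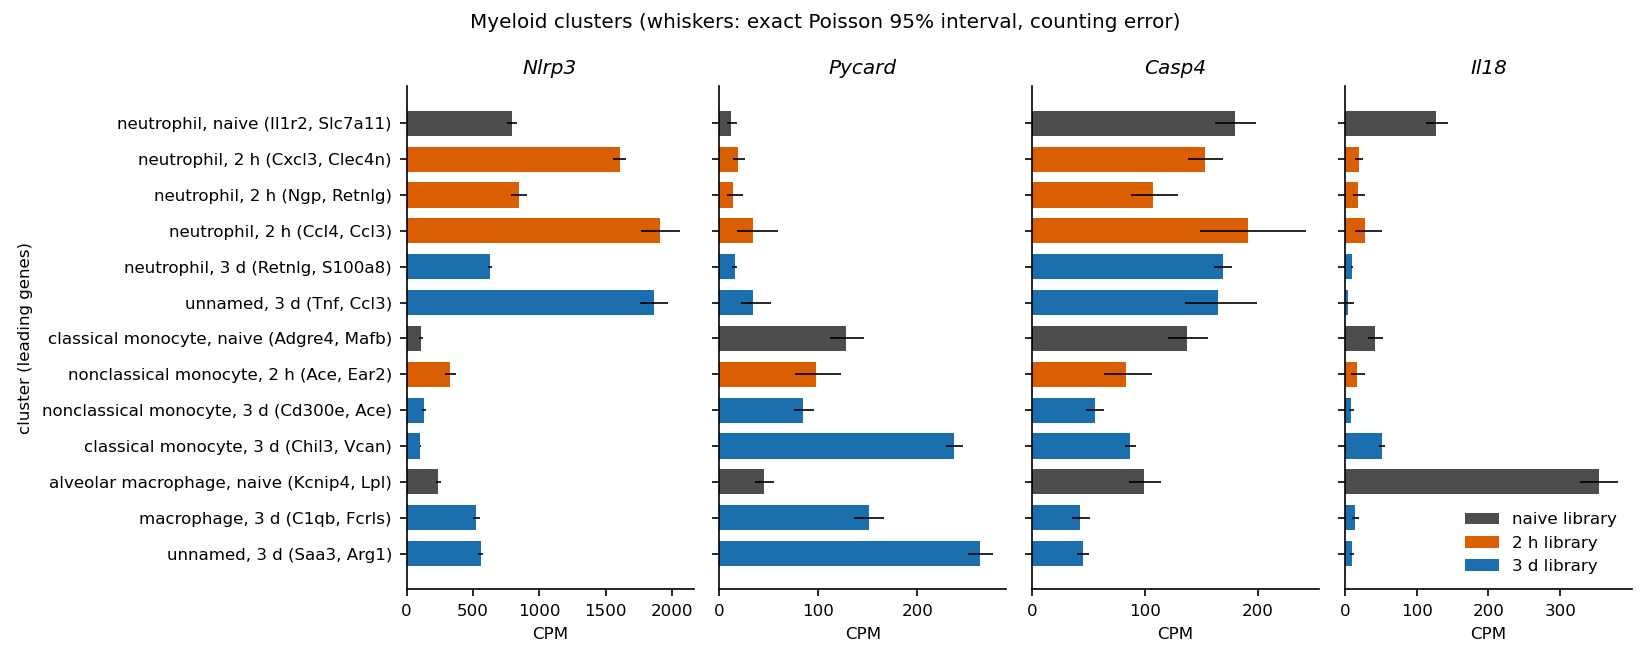
Level in CPM of Nlrp3, Pycard, Casp4 and Il18 (panels) in the myeloid clusters, named by lineage, library and 2 leading genes, with bar color for the library and whiskers for the exact Poisson 95% interval. Nlrp3 was high in neutrophil clusters and in the unnamed Tnf and Ccl3 cluster (1863 CPM), Pycard was high in the Saa3 and Arg1 cluster (264 CPM) and in classical monocytes at 3 d (237 CPM), and Il18 was high in alveolar macrophages (354 CPM).

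In lymphocytes Nlrp3 was low, and the source of its UMIs was not tested. NK, T and B cells held 5.38, 6.69 and 2.57 CPM in the naive library, 48.0, 39.7 and 47.5 CPM at 2 h and 32.9, 18.8 and 32.7 CPM at 3 d. At 2 h this was 3.34%, 2.76% and 3.30% of the neutrophil level. The neutrophil genes S100a8 and S100a9 together stood at 3.41%, 3.22% and 4.38% of their neutrophil level in the same cells, Retnlg at 2.64%, 2.70% and 3.29%, and Il1b at 3.32%, 3.05% and 3.96%. At 2 h Nlrp3 thus lay within the range of these neutrophil transcripts, so the 2 h level cannot be told apart from theirs. Without cells called as doublets it was 8.64, 10.7 and 27.3 CPM at 2 h and 13.7, 9.94 and 24.2 CPM at 3 d. B cells at 2 h stood 18.5-fold over naive ones (9.13 to 42.4), on 9 UMIs in the naive library. T cells made up the remaining pair at least 2-fold lower at 3 d than at 2 h, with an Nlrp3 log2 ratio of -1.08 that was -0.11 without called doublets. At 3 d, Nlrp3 stood at 5.24%, 3.00% and 5.20% of the neutrophil level, above S100a8 and S100a9 with 2.70%, 0.799% and 1.17%, above Retnlg with 2.44%, 0.514% and 0.901% and above Il1b with 4.12%, 2.49% and 2.99%, so these genes did not keep 1 ratio there. Nlrp3 was also less confined to neutrophils at 3 d. Of its UMIs in cells left after the filters, neutrophils held 40.4%, unnamed clusters 30.2%, monocytes 10.9% and macrophages 8.22%. A percent of the neutrophil level leaves these other cells out, and their part in the lymphocyte UMIs was not tested. In B cells, 49 of the 1904 cells at 3 d belonged to the cluster that held the B cells of 2 h, and these stood at 603 CPM against 22.0 CPM in the leading B cell cluster.

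**Figure D4:**
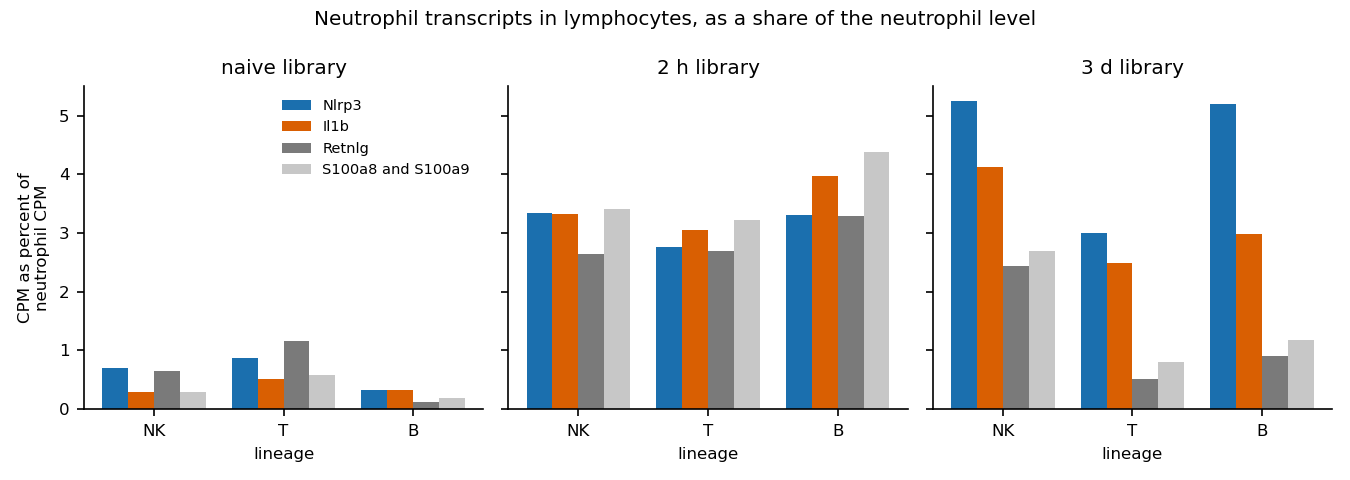
CPM of Nlrp3, Il1b, Retnlg and S100a8 with S100a9 in NK, T and B cells. Each is a percent of its neutrophil level in the same library (panels), and bars are single values without error. At 2 h the Nlrp3 bars (3.34%, 2.76% and 3.30%) stood among those of the other genes, and at 3 d (5.24%, 3.00% and 5.20%) they stood above all the other bars in each lineage.

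The share of cells with an Nlrp3 UMI turned with depth. Over all UMIs it was 82.2% of naive, 50.3% of 2 h and 74.8% of 3 d neutrophils, whose median depths were 5574.5, 751 and 4443 UMIs. With each cell thinned to 500 UMIs, it was 31.2% (26.6% to 36.1%, Clopper-Pearson), 39.8% (38.3% to 41.3%) and 25.1% (23.3% to 26.96%), in the order of the CPM, where 340 of 4391 cells at 2 h and none in the other libraries were too shallow to be included. In B cells the share was 1.44% of naive, 3.17% of 2 h and 9.87% of 3 d cells over all UMIs. After thinning it was 0 of 555 naive cells, which by a limit of 3 counts allows up to 0.541% of cells at that depth, 1.62% at 2 h and 1.42% at 3 d.

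Aim2, the sensor of cytosolic DNA, was carried by all 6 lineages of the naive library. It stood at 104 CPM in monocytes, 93.4 in NK cells, 88.4 in B cells, 88.2 in macrophages, 65.4 in neutrophils and 51.1 in T cells, and the intervals of neighbors in that order overlapped, whereas monocytes stood 2.03-fold (1.68 to 2.44) and NK cells 1.83-fold (1.57 to 2.13) over T cells. In both transplant libraries it was lower throughout, between 13.9 and 40.5 CPM at 2 h and between 24.3 and 42.8 CPM at 3 d. Against naive it was at least 2-fold lower in all 5 lineages at 2 h, from 2.55-fold in monocytes to 6.74-fold in NK cells, and in 5 of 6 at 3 d, with T cells at a log2 ratio of -0.99. Between 2 h and 3 d no lineage reached 2-fold, and the log2 ratios lay between -0.19 and 0.88. Of the summed lineages at 3 d, B cells had the highest level (42.8 CPM, 39.0 to 46.9), apart from that of monocytes (35.4 CPM, 32.6 to 38.4). By cluster, Aim2 stood higher in nonclassical monocytes (60.2 CPM, 52.3 to 68.9) and in the unnamed Tnf and Ccl3 cluster (98.9 CPM), and classical monocytes held 28.9 CPM.

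The GENCODE span of Aim2 holds 111.7 kb of intron, the longest of the 7 members, but it begins at a transcript start well upstream of the RefSeq one, whose promoter window is 173420354 to 173420653, so that the class of Aim2 depends on the annotation. The class of genes with the longest introns, to which Aim2 belongs by GENCODE, had a median log2 ratio of -1.46 to -2.21 between 2 h and naive, depending on the lineage. Aim2, at -1.35 to -2.75, lay above the median of that class in 4 lineages and below it in NK cells. Between 3 d and naive it was -1.19 in neutrophils to -1.70 in B cells. Between 3 d and 2 h, which share a Cell Ranger version, the median of that class of genes was 0.21 to 0.57. There the medians rose with intronic length in monocytes, NK, T and B cells. In neutrophils they went from 0.32 to 0.21 over the classes with introns. No source used here says whether introns were counted in each library, and the part of counting in the Aim2 difference was not tested. Nlrp3 (21.3 kb of intron), Casp4 (24.2 kb) and Il18 (25.98 kb) fall in the next shorter class, whose median at 2 h against naive was -0.31 to -0.67. Nlrp3 in neutrophils and monocytes lay above and Il18 below that range. Aim2 also lay below that range, in all 5 lineages.

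**Figure D5:**
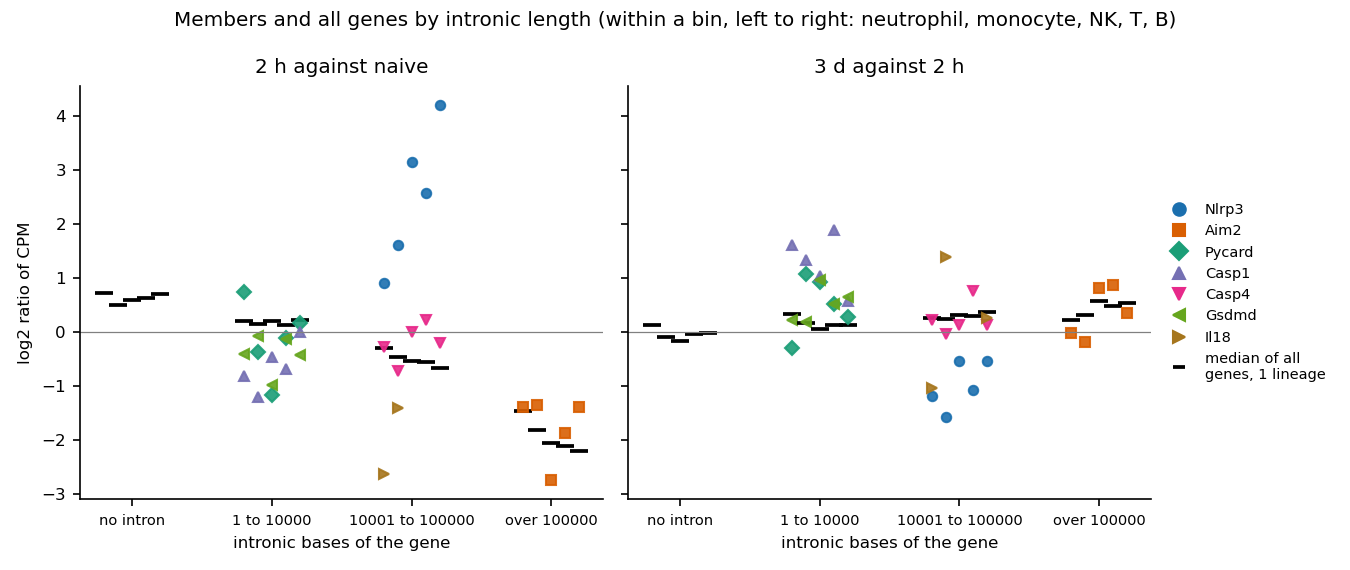
Log2 ratio of CPM for the 7 genes (colored symbols, pairs with at least 30 UMIs) and the median of all genes (black dashes) by class of intronic length, 1 symbol per lineage, for 2 h against naive (left) and 3 d against 2 h (right). The medians fall with intronic length against naive, to -2.21 in B cells. Between the transplant libraries they rise with it in monocytes, NK, T and B cells, to 0.57 in NK cells. In neutrophils they go from 0.32 to 0.21 over the classes with introns. On the left, Aim2 (-1.35 to -2.75) lies above the dash of its GENCODE class in 4 lineages and below it in NK cells.

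Pycard, which encodes the adaptor between sensor and caspase-1, had a lineage pattern unlike that of Nlrp3. Neutrophils held 11.6 CPM in the naive library (7.56 to 17.0), 19.2 at 2 h and 15.6 at 3 d, the lowest of all lineages each time. Monocytes held 127, 97.3 and 205 CPM and NK cells 165, 73.0 and 138 CPM in the same order. The ratio of the neutrophil to the monocyte level was 0.0912 (0.0583 to 0.137) in the naive library, 0.197 (0.141 to 0.277) at 2 h and 0.0759 (0.0647 to 0.0886) at 3 d. For Nlrp3 the same ratio was 7.20, 4.42 and 5.75, so that the sensor and the adaptor stood in opposite order in these lineages in all 3 libraries. Thinned to 500 UMIs, 0.885% of neutrophils and 7.61% of monocytes at 3 d held a Pycard UMI.

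Monocyte Pycard was 2.11-fold higher at 3 d than at 2 h (1.67 to 2.71). This rested on the classical monocyte cluster of 3 d, with 237 CPM in 769 cells, which held 1 cell at 2 h. Nearly all monocytes of 2 h fell in a cluster named nonclassical, and whether it also held classical cells was not tested. Nonclassical monocytes stood at 97.7 CPM at 2 h and 85.0 CPM at 3 d in their main clusters, and over nonclassical cells alone the log2 ratio was -0.15. Pycard was highest, at 264 CPM, in the Saa3 and Arg1 cluster of 3 d, and the C1q macrophages of 3 d held 151 CPM against 47.3 CPM in naive macrophages, a 3.19-fold difference (2.54 to 4.03). NK cells held 2.26-fold less at 2 h than in the naive library (1.79 to 2.89), and T cells differed little, with 57.9, 53.4 and 76.1 CPM.

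Casp1, which encodes the protease that matures IL-1β and IL-18, was highest in monocytes in every library, with 68.8 CPM in the naive, 29.7 CPM at 2 h and 75.2 CPM at 3 d. At 2 h the monocyte interval overlapped those of B and NK cells. In monocytes, neutrophils, NK cells and T cells the 2 h library held the lowest level. The interval of the ratio of 2 h to naive excluded no difference in monocytes and neutrophils only. In NK and T cells, with 19 and 13 UMIs at 2 h, that interval included no difference, so their 2 h level was not separated from naive. In B cells the naive and 2 h levels were alike (19.4 and 19.5 CPM). Neutrophils held 18.2, 10.4 and 31.8 CPM, and the 3 d level was 3.06-fold over 2 h (2.20 to 4.36). In monocytes the ratio was 2.53-fold (1.66 to 4.05), in NK cells 2.05-fold (1.22 to 3.60) and in T cells 3.72-fold (2.11 to 7.16), on 13 to 40 UMIs at 2 h. B cells held 19.5 and 28.9 CPM, short of 2-fold. Among nonclassical monocytes the log2 ratio was 1.10. Against naive, the 3 d level was within 2-fold in every lineage but T cells, where it was 2.30-fold higher (1.61 to 3.34) but, without the cell filter, 0.49 on the log2 scale, and at 2 h monocytes were 2.32-fold lower (1.46 to 3.83).

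Casp4, the caspase of the noncanonical pathway, followed the order neutrophil, monocyte, macrophage, lymphocyte. Neutrophils held 176, 144 and 169 CPM, monocytes 137, 82.4 and 80.2 CPM, and T cells, the lowest, 10.3, 12.04 and 20.3 CPM in the order naive, 2 h and 3 d. In neutrophils the log2 ratio was -0.29 at 2 h against naive and 0.23 at 3 d against 2 h, or -0.05 less the median of all genes. The neutrophil level was 5.42, 5.15 and 5.50 times that of B cells. Macrophages at 3 d held 42.4 CPM, 2.37-fold less than the alveolar macrophages of the naive library (1.87 to 3.01). Endothelial cells found among the sorted cells held 301 CPM in the naive library (92 cells), 91 CPM at 2 h (49 cells) and 34 CPM at 3 d (297 cells). These levels rest on 83, 6 and 22 Casp4 UMIs. The cells had a median of 1327.5, 1064 and 791 UMIs, and the epithelial marker Sftpc was among the 10 leading genes of their cluster.

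Gsdmd encodes the protein that forms the membrane pore. Monocytes were highest in each library, with 51.2, 48.6 and 55.3 CPM, and stood 3.74-fold (2.61 to 5.42), 4.81-fold (2.49 to 9.87) and 3.49-fold (2.96 to 4.13) over B cells. Neutrophils held 39.2, 29.3 and 34.0 CPM, with intervals that overlapped between libraries. The ratio of the neutrophil to the monocyte level was 0.77 (0.56 to 1.04) in the naive library, where the 2 were not separated. It was 0.60 (0.41 to 0.90) at 2 h and 0.61 (0.54 to 0.69) at 3 d. No lineage reached 2-fold between 2 h and 3 d, and NK cells came closest at a log2 ratio of 0.97 on 14 and 50 UMIs. The macrophage level was 17.2 CPM in the naive and 42.8 CPM in the 3 d library, 2.48-fold higher (1.69 to 3.74) in the C1q than in the alveolar cells. The Saa3 and Arg1 cluster stood at 23.9 CPM, and with it counted among the macrophages the log2 ratio to naive was 0.76, short of 2-fold.

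Il18, the cytokine, was led by different cells in each library. In the naive library macrophages held 346 CPM (321 to 372) and neutrophils 123 CPM (109 to 138), against 43.2 CPM in monocytes and 5.70, 3.04 and 1.71 CPM in B, NK and T cells. The neutrophil level was 40.4 times that of NK cells in the same library (23.2 to 76.8). At 2 h, where no macrophages were named, neutrophils held 19.7 CPM and monocytes 16.2 CPM, with overlapping intervals. At 3 d monocytes were highest with 42.5 CPM (39.5 to 45.8), followed by macrophages with 14.4 CPM and neutrophils with 9.60 CPM. Of the Il18 UMIs in cells left after the filters, macrophages thus held 63.1% in the naive library, neutrophils 72.4% at 2 h and monocytes 70.1% at 3 d. These shares move with the number and depth of the cells of each lineage, and with the filters. Without the filters, when each cell left out took the lineage of the most similar cluster, naive macrophages were 323 cells in place of 107. Their UMIs were then 8058996 in place of 2029968, so the naive share leaves out much of the macrophage RNA.

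The Il18 level of neutrophils was 6.23-fold lower at 2 h than in the naive library (4.82 to 8.14) and 12.8-fold lower at 3 d (10.2 to 16.2). Between 2 h and 3 d it was 2.05-fold lower (1.51 to 2.79), a call that 12 of 16 alternative settings kept, with log2 ratios for Il18 from -1.31 to -0.61. C1q macrophages at 3 d stood 24.0-fold below naive macrophages (17.3 to 34.2), and the Saa3 and Arg1 cluster stood at 9.9 CPM. At 3 d the classical monocytes held 51.5 CPM and the nonclassical cluster 8.6 CPM. The 2.62-fold higher monocyte level at 3 d (1.49 to 5.10), on 12 UMIs at 2 h, therefore compared clusters named as different subsets. Over nonclassical monocytes alone it was 16.3 CPM at 2 h and 9.28 CPM at 3 d, a log2 ratio of -0.81. In lymphocytes the level never exceeded 5.70 CPM.

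Of 32 member pairs with enough UMIs, 4 were at least 2-fold higher at 2 h than in the naive library. Over all 42599 pairs, 8.44% were higher. All 4 were Nlrp3 (monocytes, NK cells, T cells and B cells). In NK, T and B cells the 2 h level could not be told apart from that of other neutrophil transcripts, as given above. The monocyte call was kept in 11 of 14 alternative settings with a value. The 9 pairs at least 2-fold lower, where 28.6% of all pairs were lower, were Aim2 in 5 lineages, Il18 in neutrophils and monocytes, Casp1 in monocytes and Pycard in NK cells. The median log2 ratio was -0.40 over member pairs and -0.35 over all genes. With the median of all genes set to 0, 5 were higher and 5 lower, against 14.8% and 20.6% of all pairs. At 3 d, 7 of 40 pairs were higher, where 8.53% of all 59344 pairs were, and 9 were lower, where 18.7% were. Of the 7, 3 were in macrophages (Nlrp3, Pycard and Gsdmd), 3 were Nlrp3 in lymphocytes and 1 was Casp1 in T cells. Of the 9, 5 were Aim2, 3 were Il18 (neutrophils, macrophages and B cells) and 1 was Casp4 in macrophages. The lineage medians of all genes lay between -0.42 and -0.20 at 2 h and between -0.32 and 0.17 at 3 d. Both comparisons share the naive library.

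Around the members, 44 of 45 other genes of the pathway had a row in the files. Counts in these lists stand against 16.2% of pairs over all genes that were at least 2-fold higher at 3 d than at 2 h and 7.21% that were lower. Monocyte values in all these lists are sums over subsets that differed between libraries, as given above. They were not split by subset, so a monocyte ratio cannot be told apart from a difference in subsets. Of 11 other sensors, 10 gave 33 pairs with enough UMIs, of which 15 were higher at 3 d and 3 lower, with a median log2 ratio of 0.61. A pair could reach the UMI minimum on its 3 d UMIs alone. At 2 h against naive, 1 of 20 pairs was higher and 11 lower (median -1.18), where 8.44% and 28.6% of all pairs were. At 3 d against naive, 12 of 43 were higher and 15 lower (median -0.37), where 8.53% and 18.7% of all pairs were. Mefv, which encodes the sensor pyrin, held 138 CPM in monocytes at 2 h and 322 CPM at 3 d, a log2 ratio of 1.22, and stayed near 200 CPM in neutrophils with 197 and 215 CPM. Ifi204, a sensor of the AIM2 family, held 199.9 and 278 CPM in monocytes and 67.4 and 54.9 CPM in neutrophils. Naip5, which detects flagellin, was 5.26-fold higher at 3 d in NK cells (4.62 and 24.3 CPM). The 2 h value is low, among 1082569 UMIs of all genes in NK cells. In T cells Naip5 was 3.08 higher on the log2 scale (1.15 to 6.16, on 2 UMIs at 2 h), and its UMIs may be split with its near-identical neighbors.

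Among 10 licensing and assembly partners, 8 of 46 pairs were higher at 3 d and 4 lower. Nek7, which binds NLRP3 during assembly, held between 21.5 and 72.2 CPM at 2 h and between 36.0 and 85.9 CPM at 3 d, lowest in neutrophils both times, and no lineage reached 2-fold. Txnip, which binds NLRP3 under oxidative stress, held 730.4 CPM in naive neutrophils, 143 CPM at 2 h and 168 CPM at 3 d. Of 7 other caspases and executioners, 5 gave 25 pairs, with 2 higher and 6 lower at 3 d. Ninj1, which ruptures the plasma membrane after pore formation, held 276.8, 581 and 212 CPM in neutrophils and 196, 401 and 140 CPM in monocytes in the order naive, 2 h and 3 d, the same order of libraries as Nlrp3 in neutrophils. Its log2 ratio of 3 d to 2 h was -1.46 and -1.52. Gsdme, a related pore-forming protein, was lower at 3 d in NK, T and B cells, by 2.97, 2.56 and 2.50 on the log2 scale. Casp8 was 2.13-fold higher at 3 d in B cells.

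The IL-1 family ligands listed beside IL-18 gave 14 pairs, of which 3 were higher and 1 lower at 3 d. Il1b held 6894 CPM in naive neutrophils, 11001 at 2 h and 8279 at 3 d, and 631, 2407 and 1335 CPM in monocytes, so that 2 h stood highest in both, as for Nlrp3. Il1f9, also called Il36g, held 225, 322 and 433 CPM in neutrophils. Il1a was under 10 CPM in monocytes and lymphocytes, where its ratios rest on few UMIs, and held 192 CPM in naive macrophages. It was also among the 10 leading genes of the Ccl4 and Ccl3 neutrophil cluster of 2 h and of the unnamed Tnf and Ccl3 cluster of 3 d.

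Both chains of the IL-18 receptor were carried by NK cells. Il18r1 held 520.5, 191 and 267 CPM in NK cells and 175, 59.2 and 110 CPM in T cells, and Il18rap held 881, 239 and 558 CPM in NK cells and 333, 301 and 213 CPM in neutrophils, in the order naive, 2 h and 3 d. Between 2 h and 3 d, Il18rap was 2.33-fold higher in NK cells and 2.67-fold higher in T cells. Over the 4 genes of that list, 3 of 14 pairs were higher and 1 lower at 3 d. The transplant libraries also carried antibody counts, and the antibody to CD218a, the protein of Il18r1, gave 0 counts in 10283 cells at 2 h and 1 in 8324 cells at 3 d, although the antibody to CD45R gave 18.5 and 17.7 counts per B cell against 0.289 and 0.696 per T cell. These counts do not show whether the CD218a antibody was in the stain, so receptor protein could not be judged.

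Of the 8 inhibitors, 5 of 37 pairs were higher at 3 d and 6 lower. Il1rn, the IL-1 receptor antagonist, held 723, 2438 and 662 CPM in neutrophils and 9.7, 489 and 81.4 CPM in monocytes, and was 3.68-fold and 6.01-fold lower at 3 d than at 2 h. Tnfaip3, which restrains NF-κB signaling, held 205, 464 and 293 CPM in neutrophils. Over all 6 lists, 36 of 169 pairs were higher and 21 lower at 3 d, against the 16.2% and 7.21% of all pairs, with a median log2 ratio of 0.19 against 0.26 over all genes.

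The patterns of the members over lineages were compared by Pearson's r of log2(CPM + 10), less the mean of the library, over 17 points that share 3 libraries. Nlrp3 and Casp4 were the most alike pair of members (r = 0.88), whereas Nlrp3 and Pycard had r = -0.35. Among 6413 genes, those most like Nlrp3 were C5ar1, the receptor of complement C5a (r = 0.99), Rab20 (0.99) and Osm, which encodes oncostatin M (0.99). Those most like Casp4 were Skap2 (0.98), Crk (0.97) and Taldo1 (0.97), those most like Pycard were Dpy19l1 (0.95), Bscl2 (0.94) and Srp9 (0.93), and those most like Gsdmd were Vav3 (0.95), Adssl1 (0.95) and Ifitm3 (0.93). Il18 was closest to Mctp1, Eepd1 and Tmem170b (0.94 each). For Aim2 the highest values were lower, with Rnf111 at 0.86, Napsa at 0.82 and Dapp1 at 0.80.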

How the data were processed

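The authors deposited raw UMI counts per gene and cell for each library, made with Cell Ranger (6 in the submitters' notes, 7.1.0 in the naive header and 6.0.0 in both transplant headers) on mm10. The labels name 5′ v1.1 and 3′ v1.1 kits and the study's methods another 3′ version, so the chemistry is unsettled, and no source used here states how introns were treated. The filter removed cells outside 200 to 6000 genes, with 10% or more mitochondrial UMIs or with 25000 or more UMIs, and the rest were normalized with sctransform 0.4.2 and clustered with Seurat 5.3.0 in R 4.3.3 (30 principal components, resolution 0.8, 29 clusters). Clusters were named from marker lists, and a cluster led by another class's markers, or with too few of its own, stayed unnamed. Doublets called by Scrublet in scanpy 1.11.5 (40, 403 and 277 cells) were kept and removed in an alternative. Raw counts were summed per lineage and library with Python 3.11.15, numpy 2.4.6 and scipy 1.17.1. Intervals of 95% are exact (Poisson, Clopper-Pearson or conditional on both counts). They cover counting error only, since each group holds 1 library and no test was made. A pair was called at 2-fold with at least 30 UMIs in both libraries together, and a value against a library with no UMI was set against a floor of 3 UMIs. The ratios and their intervals were tested on simulated counts that were already summed. The pathway genes named are the 2 with the highest mean CPM in each list and those past 4-fold between 2 h and 3 d in at least 2 lineages, and for each member the 3 genes of most similar pattern, which for Casp1 are not reported here. That pattern has 17 points in place of 18, since 2 h holds no macrophages. The 7 members, the lists and the cell filters were chosen with earlier results of these data known. Of 32285 gene identifiers, 32158 were found in the annotation. Alternatives changed the cell filter, doublets, cell calls, cluster resolution, depth, scaling and count minimum, and 4 on cluster choice were added after seeing the data.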

Additional observations from a re-analysis of the deposited data

Results flagged for a closer look

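Il18 differed in opposite directions between 2 h and 3 d in 2 lineages. Its log2 ratio of 3 d to 2 h was -1.04 in neutrophils (-1.48 to -0.59) and 1.39 in monocytes (0.58 to 2.35), and with 1 library per group the difference between the lineages was not tested. Over nonclassical monocytes alone, the subset named in both libraries, the ratio was -0.81. The neutrophil call was kept in 12 of 16 alternative settings, with Il18 ratios from -1.31 to -0.61.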

How the results depend on the processing

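Of 39 member pairs called at 2-fold, 21 kept the call in each of 16 alternative settings that gave a value, and 4 reversed in some setting. A setting in which a pair fell below the UMI minimum gave no value and was not counted against the call. Nlrp3 in NK cells at 2 h against naive, for example, had a value in 11 of the 16 settings. When each cell was called on its own markers, the log2 ratio of 3 d to 2 h was 0.84 for Nlrp3 in monocytes and 1.79 for Nlrp3 in T cells, 1 pair was lower at 3 d than at 2 h, and at 2 h against naive 1 was higher and 14 lower. Over nonclassical monocytes alone, that ratio was -0.15 for Pycard and -0.81 for Il18 in monocytes. At resolution 0.4, 3 pairs were higher at 3 d than at 2 h. Without cells that held other lineages' markers, 3 were higher and 2 lower at 3 d than at 2 h, 0 were higher at 2 h than naive and 1 at 3 d than naive. With the mean over cells, 2 were lower at 3 d than at 2 h. Thinned to 500 UMIs, 2 were higher and 1 lower at 3 d than at 2 h, 1 was higher at 2 h than naive, and against naive 2 were higher and 3 lower at 3 d. With the median of all genes set to 0, 5 were lower at 2 h than naive, and with at least 100 UMIs, 2 were higher. Fewer pairs were counted at resolution 0.4 (26 at 3 d against 2 h, in place of 33), without other lineages' markers (22, and 26 and 27 against naive in place of 32 and 40), after thinning (23, 15 and 20) and with the larger minimum (24 at 2 h against naive), and the cause was otherwise not tested. Between 3 d and 2 h, Nlrp3 in neutrophils ranged from -1.47 to -0.97 on the log2 scale, Il18 in neutrophils from -1.31 to -0.61 and Casp1 in neutrophils from 1.34 to 1.75. No paired analysis was possible because each group holds 1 library, and no replicate could be left out. At resolution 0.4 monocytes of 2 h gave no ratio, and macrophages of 2 h gave none in the main naming.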
